A study of Homo sapiens with 18 samples.

Results

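The genes described here code for the factors that start and extend protein synthesis. They were taken by name: every symbol beginning with EIF or EEF and a digit, without the EIF2AK kinases, symbols with a hyphen, and symbols ending in P and digits, which removes pseudogenes and also the 3 EIF4EBP genes. Of 208 symbols with that prefix, 4, 6 and 139 were removed by those steps, which left 59 genes of the 58037 listed. They comprise 7 core elongation factors, 14 EIF3 subunits and 38 other initiation factors and modifying enzymes. The name rule itself uses no expression values, but members, roles and lists were chosen with earlier results of these data known. Counts were high enough to test 55 of them, namely all 7 core elongation factors, 13 EIF3 subunits and 35 others. EIF2S3L, EIF3CL, EIF4E1B and EIF5AL1 were too low to test.

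RNA was measured in LNCaP, an androgen-responsive prostate cancer line, grown in charcoal-stripped serum and transfected with siRNA pools by Lipofectamine. The 6 groups of 3 libraries were E2F2 siRNA with R1881, E2F1 siRNA with R1881, non-targeting control siRNA with R1881, E2F2 siRNA with vehicle, E2F1 siRNA with vehicle, and control siRNA with vehicle. R1881 is a synthetic androgen, given at 0.1 nM, and the vehicle was ethanol. Treatment began 48 h after transfection and lasted a further 48 h until harvest. All groups share 1 cell line, transfection and low-androgen serum, and the labels do not say whether replicates came from separate cultures, so p-values measure the spread between these libraries, which may be technical.

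Protein synthesis begins when eIF2, carrying the initiator methionyl-tRNA, joins the small ribosomal subunit together with eIF1, eIF1A, eIF5 and the many-subunit scaffold eIF3. The cap-binding eIF4E, the scaffold eIF4G and the helicase eIF4A, helped by eIF4B or eIF4H, bring the mRNA, and eIF5B joins the large subunit. In elongation, eEF1A delivers aminoacyl-tRNA, the eEF1B complex (encoded by EEF1B2, EEF1D and EEF1G) recharges it with GTP, and eEF2 moves the ribosome along the mRNA. Many mRNAs of elongation factors and ribosomal proteins begin with a C followed by a run of C and T, the 5′ terminal oligopyrimidine (TOP) tract, through which mTOR signalling and the LARP1 protein act on their translation and stability.

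RefSeq promoter windows (GRCh38.p14, 250 bases before to 50 bases after each annotated start) were found for 47 of the 59 members by symbol. In 12 of them, 25.5% of 47, an annotated start was a C followed by at least 4 more C or T, against 5.14% of all 27305 genes with a window. Among the 10110 tested genes with a window the share was 7.33%. They are shown because they carry the sequence feature that is later set beside the E2F2 siRNA values. Each line gives 10 bases before the start and 15 from it, 5′ to 3′ on the gene's strand, with the run of C and T from the start in capitals as far as it is printed.
EEF1A1 (chr6:73521018-73521042, minus strand): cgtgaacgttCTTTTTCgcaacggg
EEF2 (chr19:3985449-3985473, minus strand): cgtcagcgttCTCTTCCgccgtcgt
EEF1B2 (chr2:206159885-206159909, plus strand): ctcttcgggtCCTTTTTCCTCTCTT
EIF3D (chr22:36529152-36529176, minus strand): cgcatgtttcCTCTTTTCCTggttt
EIF3F (chr11:7987327-7987351, plus strand): cttccgcctcCTTCTTTCTCgacaa
EIF3K (chr19:38619178-38619202, plus strand): tttccaccacCTCTTCCTgttcccg
EIF3M (chr11:32583821-32583845, plus strand): gcccagttccCTTTTCCggtcggcg
EIF4B (chr12:53006446-53006470, plus strand): tcatccgggtCTTTTgcgttctctt
EIF4A2 (chr3:186783567-186783591, plus strand): gcgccgctgtCTTTTCagtcgggcg
EIF2A (chr3:150546777-150546801, plus strand): cgagcggtttCTCTTTCCgggacaa
EIF2D (chr1:206612451-206612475, minus strand): ccagccgggcCCTTTTCgcggccgg
EIF2S3 (chrX:24054946-24054970, plus strand): gatttccttcCTCTTTTggcaacat
The 12 comprised 3 of 5 core elongation factors with a window, 4 of 8 EIF3 subunits and 5 of 34 other members. No window was matched for EEF1A2, EEF1D, EIF3A, EIF3E, EIF3G, EIF3H, EIF3L or 4 others besides EIF3CL.

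Libraries held 10930204 to 14819879 counts. Replicate 3 of every group stood apart from replicates 1 and 2, most in control siRNA with vehicle. In that replicate EIF3J differed from the mean of replicates 1 and 2 by -2.08 and EEF2 by 0.66 on the log2 scale. Counts of calls are therefore also given for replicates 1 and 2 alone. E2F2 averaged 0.195 ± 0.192 CPM with E2F2 siRNA and R1881, against 3.43 ± 1.12 CPM with control siRNA and R1881, and E2F1 averaged 9.69 ± 0.876 CPM with E2F1 siRNA and R1881, against 74.4 ± 6.32 CPM with control siRNA and R1881 (SD, n = 3 each). E2F1 was also lower with E2F2 siRNA, at 24.1 ± 2.29 CPM with R1881, so the part of lower E2F1 in the E2F2 siRNA results cannot be told apart. E2F2 averaged 1.45 ± 0.274 CPM with E2F1 siRNA and R1881. Its log2 fold changes against control siRNA were -1.22 ± 0.38 with R1881 and -0.29 ± 0.38 with vehicle. Neither was called (SE, edgeR quasi-likelihood test, adjusted p = 0.059 and 0.82). All 8 luminal prostate markers were tested and summed to 4760 to 6220 CPM. Of 12 markers of other cell types, CD3E, DES and CHGA were at 0, 5 more stayed at or below 0.999 CPM, and VWF, COL1A1, COL3A1 and VIM were detected, with list sums of 52.1 to 60.9 and 87 to 102 CPM in the E2F2 siRNA groups with R1881 and with vehicle, against 41.1 to 43.9 and 42.8 to 66.7 CPM in the matching control groups. Their part in the results was not tested.

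EEF1A1 and EEF2 were far above the other members. On a scale of CPM per kilobase of exon (GENCODE 29 lengths), the median over 18 libraries was 1240 for EEF1A1 and 981 for EEF2, and next came EIF3I and EIF4G1 with 169 each, EIF4G2 with 160, EIF4B with 146 and EEF1A2, the paralogue of EEF1A1 typical of neurons and muscle, with 129. The libraries were made by exon capture, so levels of different genes also depend on the probes. At the low end stood EIF4E3 with 0.876, EIF3C with 0.697 and EEF1G with 0.582. Several low levels belong to genes whose reads can be lost to an overlapping or near-identical gene: EEF1G exons were covered to 99.9% by another gene of the same strand, EIF4A1 exons to 48.6%, and EIF3C has the copy EIF3CL. EIF3L exons were covered to 41.1%. Their values are uncertain. EEF1A1 had 45316 to 134145 counts per library, and its expressed pseudogene EEF1A1P5 had 61 to 244. The handling of multi-mapping reads is not given, so these counts do not show whether EEF1A1 lost reads.

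The widest difference among the members came with E2F2 siRNA. With R1881, 25 of 55 members were lower and 2 were higher than with control siRNA, against 14.4% lower and 15.9% higher among all 15185 tested genes (30.3% in either direction, edgeR quasi-likelihood test with Benjamini-Hochberg adjustment over all tested genes, adjusted p under 0.05). With vehicle, 22 were lower and 2 higher, against 13.1% lower and 14.2% higher among all tested genes (27.3% in either direction). The 2 comparisons use different libraries but the same siRNA pools. They shared 21 lower genes, 84% of the 25 and 95.5% of the 22, and 1 higher gene, EIF4G3. The overlap among all tested genes was not counted, so these shares have no background beside them. From replicates 1 and 2 alone, 37 of 56 tested members were lower and 7 higher with R1881 (51.4% of all genes called), and 31 were lower and 4 higher with vehicle (45.7%). With R1881 the median log2 fold change was -0.69 for core elongation factors, -0.51 for EIF3 subunits, -0.26 for the other members and 0.03 for all tested genes. With vehicle the same medians were -0.74, -0.54, -0.16 and 0.02. Core elongation factors were called lower in 5 of 7 cases with either treatment, EIF3 subunits in 8 of 13 with R1881 and 7 of 13 with vehicle, and the others in 12 and 10 of 35.

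**Figure D1:**
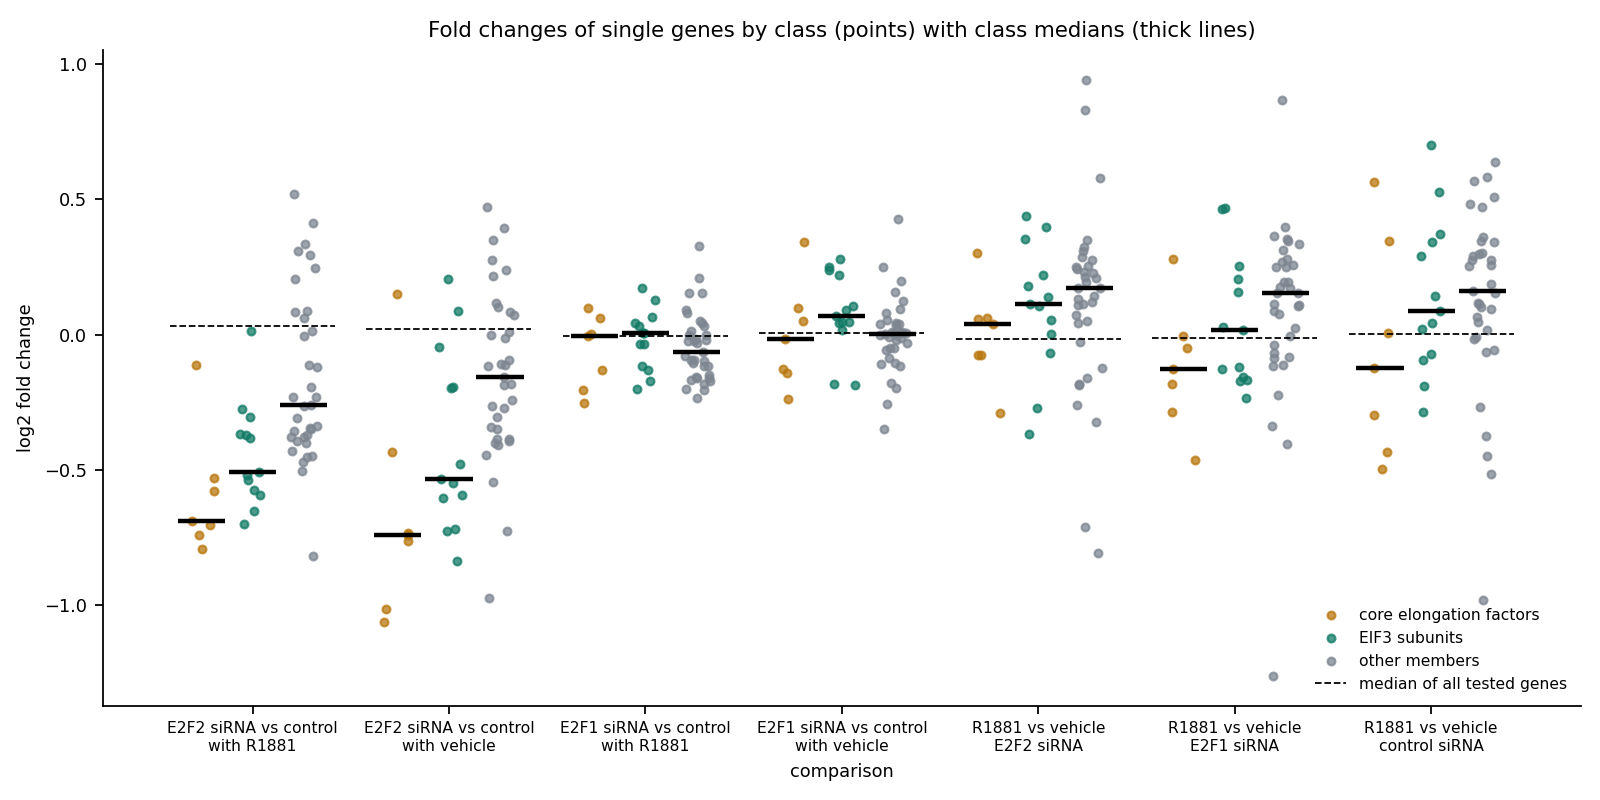
Each point is 1 gene's log2 fold change (vertical axis) in 1 of 7 comparisons (horizontal axis), coloured by class, with thick lines at class medians and dashed lines at the median of all tested genes. In both E2F2 siRNA comparisons the class medians lie at -0.69 and -0.74 (core elongation), -0.51 and -0.54 (EIF3) and -0.26 and -0.16 (others), while those for E2F1 siRNA lie between -0.06 and 0.07.

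EEF1A1 (GRCh38 chr6:73515750-73523797, minus strand), which delivers aminoacyl-tRNA to the ribosome, measured 4244, 3991 and 4001 CPM with E2F2 siRNA and R1881, against 6967, 6992 and 7244 CPM with control siRNA and R1881. With vehicle it measured 4266, 4276 and 4342 CPM with E2F2 siRNA, against 8524, 8582 and 8950 CPM with control siRNA. The groups did not overlap in either treatment, and the 3 libraries of each E2F2 siRNA group lay close together. The log2 fold changes were -0.79 ± 0.05 (SE, adjusted p = 5.9e-08) with R1881 and -1.02 ± 0.06 (adjusted p = 6.7e-09) with vehicle.

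EEF2 (chr19:3976056-3985469, minus strand), the translocase of elongation, measured 2452, 2472 and 2708 CPM with E2F2 siRNA and R1881, against 3912, 3877 and 4644 CPM with control siRNA and R1881. With vehicle it measured 2549, 2434 and 3054 CPM with E2F2 siRNA, against 4709, 4657 and 7416 CPM with control siRNA. The groups were again separate, although the third control library with vehicle was far above the other two. EEF2 fell by 0.70 ± 0.17 (adjusted p = 0.0045) with R1881 and by 1.06 ± 0.17 (adjusted p = 0.00021) with vehicle on the log2 scale. From replicates 1 and 2 alone, the changes were -0.66 and -0.91.

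EEF1B2, the exchange factor subunit that reloads eEF1A with GTP, measured 116.6, 120.0 and 117.4 CPM with E2F2 siRNA and R1881, against 184.4, 189.7 and 197.2 CPM with control siRNA and R1881. The groups did not overlap. It fell by 0.69 ± 0.09 with R1881 (adjusted p = 2.2e-05) and by 0.74 ± 0.09 with vehicle (adjusted p = 1.2e-05). EEF1D, another subunit of the same complex, fell by 0.58 ± 0.14 with R1881 (adjusted p = 0.0050) and by 0.77 ± 0.14 with vehicle (adjusted p = 0.00071). EEF1A2 measured 442, 444 and 506 CPM with E2F2 siRNA and R1881, against 625, 618 and 766 CPM with control siRNA and R1881, and fell by 0.53 ± 0.17 (adjusted p = 0.031). That call was lost when E2F2 siRNA replicate 1 or 2, or control replicate 3, was left out, with adjusted p up to 0.12. With vehicle EEF1A2 changed by -0.74 ± 0.18 (adjusted p = 0.0054).

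The other 2 core genes did not pass. EEF1G, the structural subunit of eEF1B, had a log2 fold change of -0.74 ± 0.41 with R1881 (adjusted p = 0.19) at only 1.04 to 3.00 CPM in those 6 libraries, and EEF1E1, a component of the multi-synthetase complex despite its name, had -0.11 ± 0.51 (adjusted p = 0.90). The 7 genes together took 0.687% to 0.741% of all counts with E2F2 siRNA and R1881, against 1.19% to 1.30% with control siRNA and R1881. With vehicle the shares were 0.718% to 0.820% with E2F2 siRNA and 1.47% to 1.86% with control siRNA. In bulk RNA, less RNA in every cell and fewer cells with normal levels cannot be told apart.

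**Figure D2:**
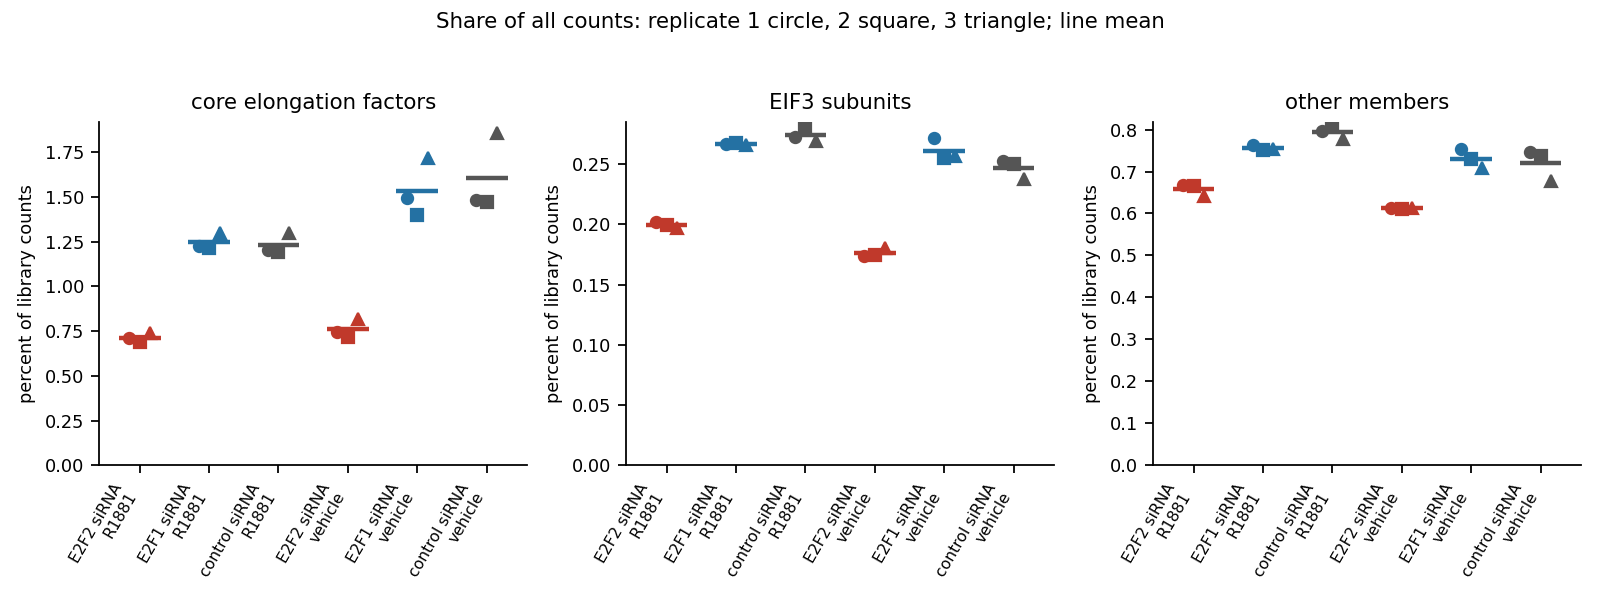
Percent of each library's counts (vertical axis) in 3 gene classes, with 1 point per library in 6 groups and lines at group means. The E2F2 siRNA libraries lie below the E2F1 and control siRNA libraries of the same treatment in all 3 panels, with core elongation factors at 0.687% to 0.820% in E2F2 siRNA libraries.

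Most of the EIF3 complex, which holds the small subunit ready for mRNA, was lower as well. EIF3L (chr22:37848868-37889407, plus strand) measured 89.7, 88.0 and 89.4 CPM with E2F2 siRNA and R1881, against 142.4, 142.5 and 149.1 CPM with control siRNA and R1881. It fell by 0.70 ± 0.07 (adjusted p = 3.8e-06), and by 0.73 ± 0.07 with vehicle (adjusted p = 3.1e-06). EIF3B, part of the conserved core of the complex, fell by 0.65 ± 0.10 with R1881 and 0.72 ± 0.10 with vehicle (adjusted p = 0.00017 and 8.4e-05). Its levels were 289, 292 and 293 CPM with E2F2 siRNA and R1881, against 447, 434 and 493 CPM with control siRNA and R1881.

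EIF3G, a subunit that takes part in scanning, had the lowest log2 fold change of the complex with vehicle, at -0.84 ± 0.20 (adjusted p = 0.0056), and -0.59 ± 0.20 with R1881 (adjusted p = 0.035). The call with R1881 was lost without any 1 of the 6 libraries (adjusted p up to 0.13). EIF3D, a cap-binding subunit for some mRNAs, EIF3F, EIF3H and EIF3K were also called lower in both treatments, with log2 fold changes of -0.38 to -0.54 with R1881 and -0.48 to -0.60 with vehicle. EIF3A, the largest scaffold subunit, was called lower with R1881 (-0.30 ± 0.07, adjusted p = 0.0050), and its value with vehicle was -0.20 ± 0.07 (adjusted p = 0.059). Blocked by replicate, EIF3A passed with vehicle at -0.19 ± 0.06 (adjusted p = 0.019). The difference between treatments did not pass for any member.

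Not every subunit followed. EIF3I, a member of the same core as EIF3B, measured 299, 323 and 305 CPM with E2F2 siRNA and R1881, against 300.2, 296 and 324 CPM with control siRNA and R1881. The groups overlapped, and the log2 fold changes were 0.01 ± 0.10 with R1881 and -0.04 ± 0.10 with vehicle (adjusted p = 0.95 and 0.79). EIF3C, EIF3E, EIF3J and EIF3M were not called, and their SE of 0.26 to 0.43 was wide. EIF3E had -0.57 and -0.54 with R1881 and vehicle, and EIF3M had -0.37 and -0.20. From replicates 1 and 2 alone both were called lower in both treatments, at -0.63 and -0.85 for EIF3E and -0.39 and -0.48 for EIF3M.

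**Figure D3:**
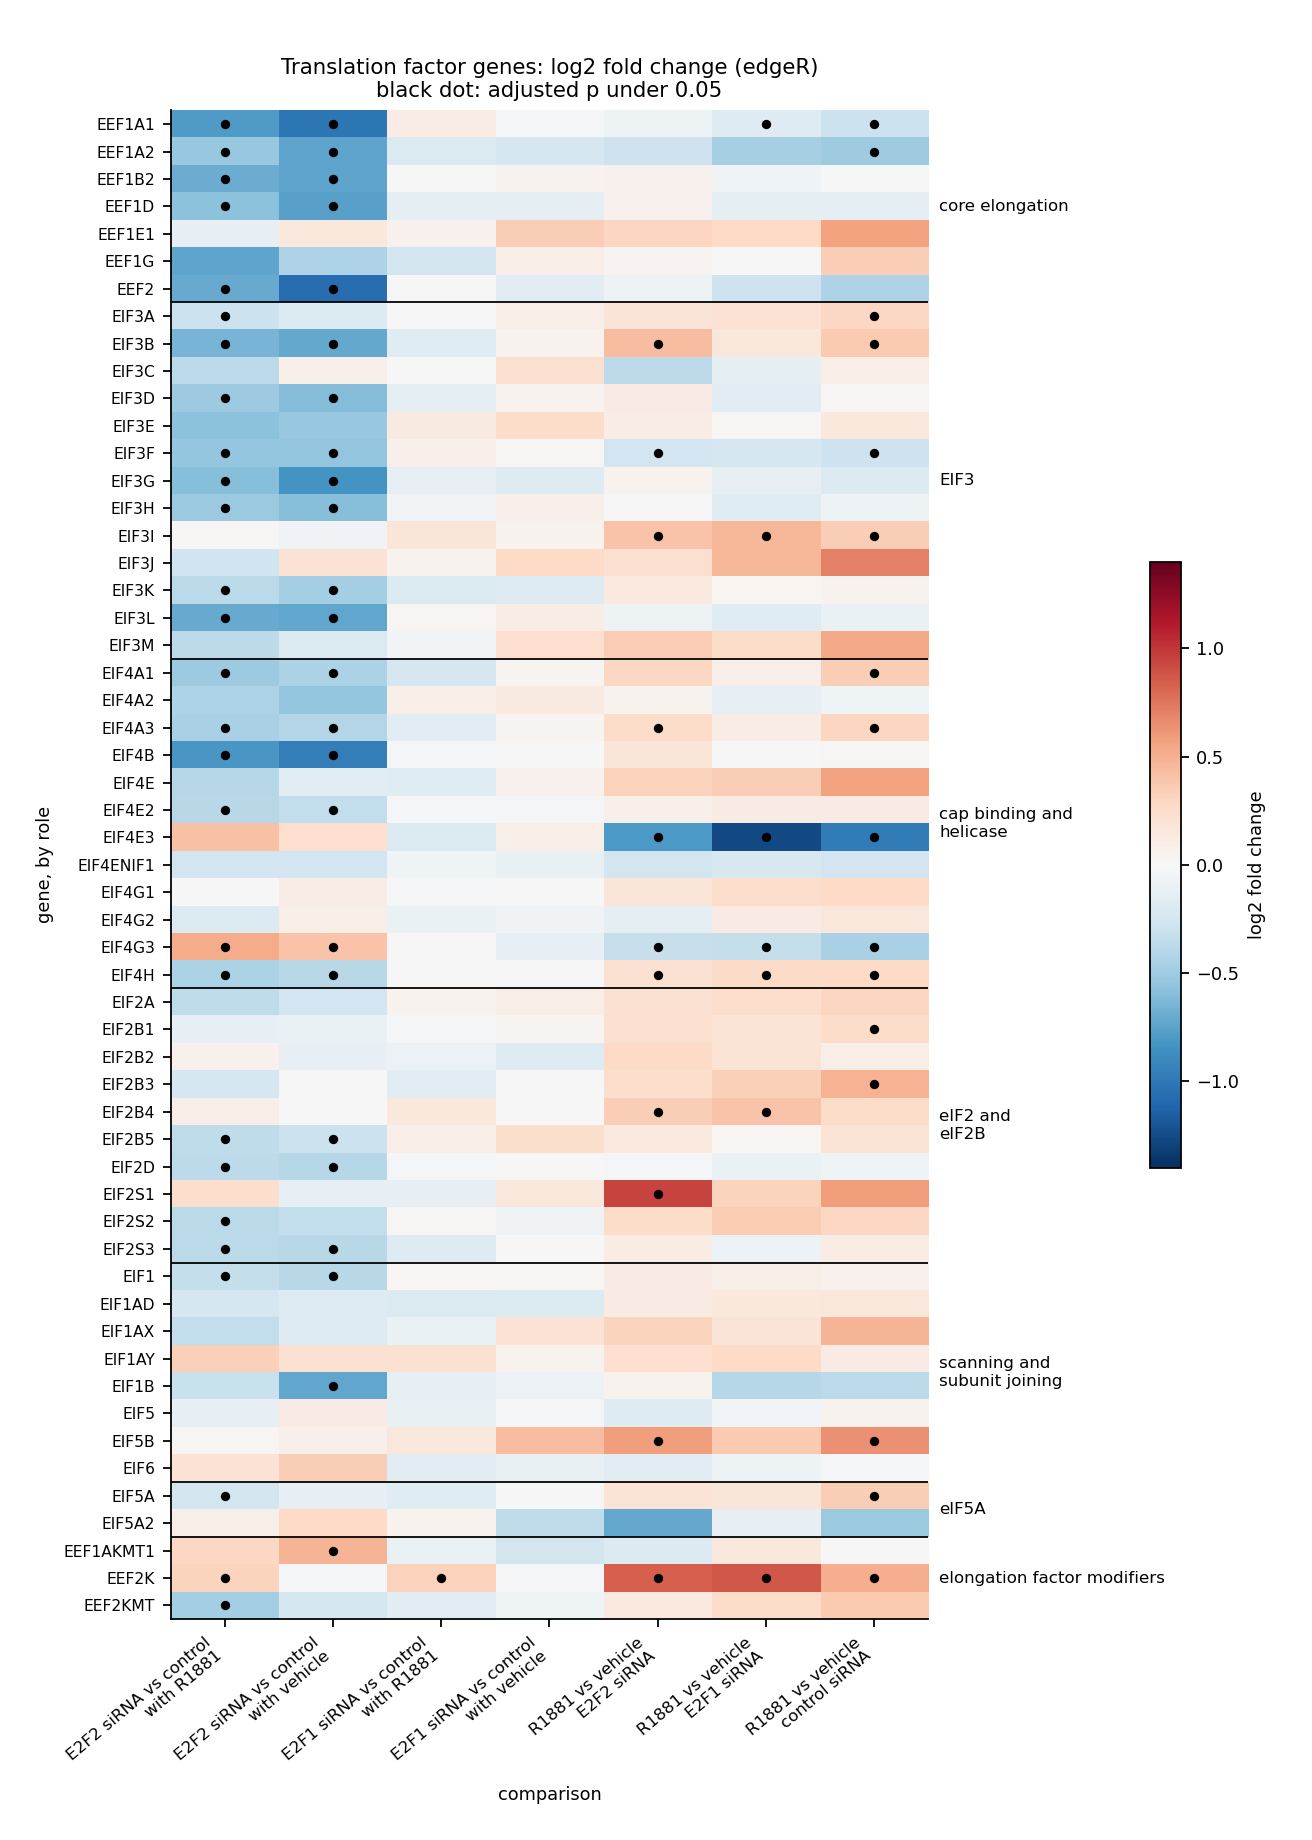
Log2 fold changes of the 55 tested members (rows, grouped by role) in 7 comparisons (columns), red for higher and blue for lower, with a black dot at adjusted p under 0.05. The first 2 columns, for E2F2 siRNA, hold 25 and 22 lower calls, and the E2F1 siRNA columns hold 1 call in all.

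Among the factors that bind the cap and unwind mRNA, EIF4B changed most. This activator of the eIF4A helicase (chr12:53006158-53042209, plus strand) measured 569.4, 514.5 and 497.2 CPM with E2F2 siRNA and R1881, against 912.5, 943.6 and 930.5 CPM with control siRNA and R1881. With vehicle it measured 467, 459 and 477 CPM with E2F2 siRNA, against 946, 925 and 883 CPM with control siRNA. The groups did not overlap. EIF4B fell by 0.82 ± 0.06 (adjusted p = 1.5e-07) with R1881 and 0.97 ± 0.06 (adjusted p = 2.6e-08) with vehicle.

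EIF4H, which resembles EIF4B in function, the helicase gene EIF4A1, its paralogue EIF4A3 of the exon junction complex, and EIF4E2, a cap-binding repressor, were lower in both treatments, by 0.39 to 0.50 with R1881 and 0.35 to 0.45 with vehicle. EIF4A2 was at -0.43 ± 0.21 and -0.54 ± 0.21 and was not called (adjusted p = 0.14 and 0.068), although the blocked value with vehicle was (-0.50 ± 0.12, adjusted p = 0.0038). The cap-binding EIF4E was at -0.40 ± 0.26 and -0.16 ± 0.26 (adjusted p = 0.28 and 0.70), with 67.5, 69.6 and 54.9 CPM with E2F2 siRNA and R1881 against 91.0, 91.3 and 71.1 CPM with control siRNA and R1881. The third library was the lowest in both of these groups. From replicates 1 and 2 alone, EIF4A2 and EIF4E were called lower in both treatments.

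Of the 3 eIF4G scaffolds, EIF4G3 alone was called. EIF4G3 (chr1:20806292-21176888, minus strand) measured 170.1, 175 and 187 CPM with E2F2 siRNA and R1881, against 115, 123 and 133 CPM with control siRNA and R1881. With vehicle it measured 216, 226 and 224 CPM with E2F2 siRNA, against 166, 165 and 175 CPM with control siRNA. It rose by 0.52 ± 0.07 (adjusted p = 3.4e-05) with R1881 and 0.39 ± 0.07 (adjusted p = 0.00049) with vehicle, and was the only member called higher in both. EIF4G1, the main scaffold, averaged 1463 ± 39.7 CPM with E2F2 siRNA and R1881 and 1468 ± 138 CPM with control siRNA and R1881 (SD, n = 3 each), a log2 fold change of -0.00 ± 0.13. EIF4G2, which lacks the eIF4E binding site, was at -0.19 ± 0.09 with R1881 (adjusted p = 0.12). From replicates 1 and 2 alone, EIF4G2 was called lower with R1881 and EIF4G1 higher with vehicle.

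Of the 10 genes of eIF2, its exchange factor eIF2B and the related EIF2A and EIF2D, 4 were called lower with R1881 and 3 with vehicle. EIF2S3, the tRNA-binding gamma subunit of eIF2, had log2 fold changes of -0.38 ± 0.12 with R1881 and -0.39 ± 0.12 with vehicle (adjusted p = 0.022 and 0.023), calls that were lost without any 1 of 3 and of 5 of the 6 libraries (adjusted p up to 0.084 and 0.093). EIF2D, which can deliver initiator tRNA without eIF2, had -0.37 ± 0.08 and -0.40 ± 0.08, and EIF2B5, the catalytic subunit of eIF2B, had -0.35 ± 0.07 and -0.31 ± 0.07. EIF2S2, the beta subunit, was called with R1881 (-0.38 ± 0.13, adjusted p = 0.037) and missed with vehicle (-0.34 ± 0.13, adjusted p = 0.064), where the blocked value passed (-0.33 ± 0.08, adjusted p = 0.0033). The call with R1881 was lost without any 1 of 5 libraries (adjusted p up to 0.14). The alpha subunit gene EIF2S1 and EIF2B1 to EIF2B4 had values between -0.23 and 0.25 and were not called, nor was EIF2A (-0.36 ± 0.25 and -0.26 ± 0.25).

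In the scanning group EIF1, which guards start codon choice, fell by 0.34 ± 0.07 with R1881 and 0.39 ± 0.07 with vehicle (adjusted p = 0.0022 and 0.00076). Its paralogue EIF1B was called only with vehicle (-0.73 ± 0.16, adjusted p = 0.0032), where it measured 16.1, 15.3 and 14.8 CPM with E2F2 siRNA against 29.6, 27.5 and 19.5 CPM with control siRNA, and had -0.31 ± 0.16 with R1881 (adjusted p = 0.17). EIF5 and EIF5B were within 0.12 of 0 in both treatments. EIF6, which keeps large subunits from joining too early, was at 0.21 ± 0.14 with R1881 and 0.35 ± 0.14 with vehicle (adjusted p = 0.30 and 0.076). With the replicate number as a block, its value with vehicle was 0.36 ± 0.10 (adjusted p = 0.0085).

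EIF5A, the hypusine-bearing factor that helps ribosomes past difficult sequences, was lower with R1881 (-0.26 ± 0.08, adjusted p = 0.023), at 345.5, 358.1 and 351.4 CPM with E2F2 siRNA against 420.4, 414.9 and 427.6 CPM with control siRNA. That call was lost when any of 5 of the 6 libraries was left out, with adjusted p up to 0.071, and with vehicle the value was -0.11 ± 0.08 (adjusted p = 0.34). Its paralogue EIF5A2 was at 0.08 ± 0.35 with R1881. Of the enzymes that modify elongation factors, EEF2K (chr16:22206282-22288732, plus strand), the kinase that inhibits eEF2, rose by 0.31 ± 0.10 with R1881 (adjusted p = 0.024), a call lost without replicate 1 or 2 of either group (adjusted p up to 0.098). With vehicle EEF2K was not called, at 60.1 ± 1.07 CPM with E2F2 siRNA and 60.7 ± 9.75 CPM with control siRNA (SD, n = 3 each). EEF2KMT, an eEF2 methyltransferase, fell by 0.47 ± 0.13 with R1881 (adjusted p = 0.013), a call lost without E2F2 siRNA replicate 1 or control replicate 3 (adjusted p up to 0.064). With vehicle EEF2KMT was not called, at 22.5 ± 2.87 CPM with E2F2 siRNA and 26.6 ± 4.21 CPM with control siRNA (SD, n = 3 each). Blocked by replicate, it was called lower there. EEF1AKMT1, an eEF1A methyltransferase, rose by 0.47 ± 0.16 with vehicle (adjusted p = 0.035), at 6.10, 8.68 and 5.94 CPM with E2F2 siRNA against 5.37, 4.43 and 5.14 CPM with control siRNA. The EEF1AKMT1 call was lost without replicate 2 of either group or control replicate 3, with adjusted p up to 0.23. With R1881 EEF1AKMT1 was not called, at 6.06 ± 0.473 CPM with E2F2 siRNA and 4.93 ± 0.345 CPM with control siRNA (SD, n = 3 each).

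**Figure D4:**
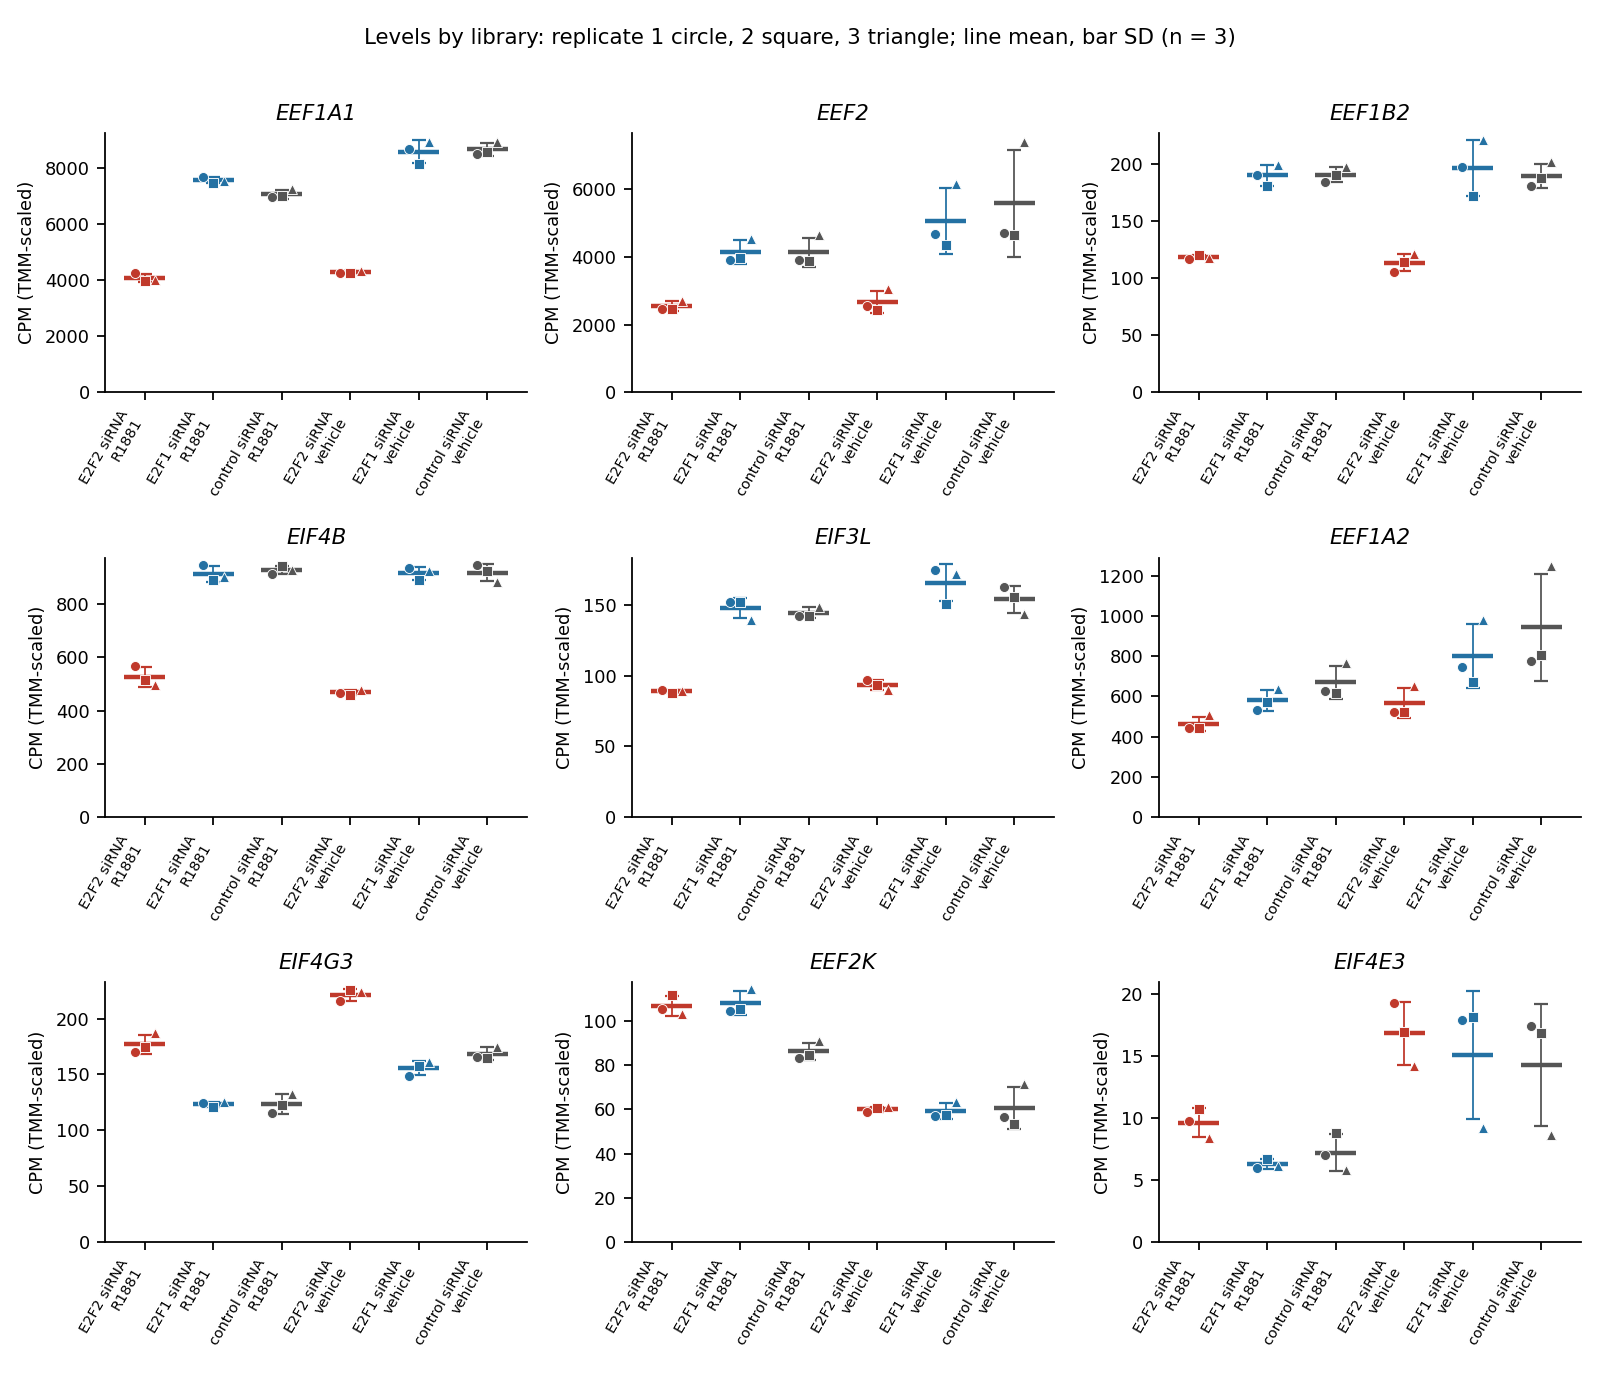
TMM-scaled CPM (vertical axis) of 9 members in the 18 libraries of 6 groups, with lines at means and bars for SD (n = 3). EEF1A1, EEF2, EEF1B2, EIF4B and EIF3L are lowest in both E2F2 siRNA groups, EIF4G3 is highest there within each treatment, and EEF2K is higher in every R1881 library than in any vehicle library.

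Other measures moved with E2F2 siRNA. The nuclear RNA MALAT1 took 4.11% to 4.85% of counts with E2F2 siRNA and R1881 and 5.22% to 7.13% with E2F2 siRNA and vehicle, against 1.25% to 1.84% and 1.25% to 3.35% with control siRNA. MYC, a transcription factor known to act on many translation genes, averaged 108 ± 13.4 CPM with E2F2 siRNA and R1881 and 258 ± 24.4 CPM with control siRNA and R1881 (SD, n = 3 each). The part of either in the members' values was not tested. The letters CACGTG, read on both strands as the same word, were in the window of 11 of 47 members (23.4%), against 8.77% of all genes with a window. Among tested members with a window they were in 0 of 5 core elongation factors, 2 of 8 EIF3 subunits and 9 of 32 others. TTTCCCGC was in none of the members' windows and 1.98% of all, and TTTGGCGC was in 1 (2.13%) and 0.795% of all, both searched on both strands. The background for these words includes genes too low to test.

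The members with a pyrimidine run at the annotated start, printed above, had lower values with E2F2 siRNA than those without. The rule for a run was set after these fold changes were known, so the split is a description and not a test. With R1881, 9 of 12 with a run were called lower and none higher, with a median log2 fold change of -0.47 and a range of -0.82 to -0.36. The 33 tested members with a window and no run included 8 lower and 2 higher calls, with a median of -0.23 and a range of -0.74 to 0.52. The value of -0.74 was that of EEF1G, whose counts were low and uncertain. Of members known to have TOP mRNAs, EEF1G had no run by this rule, and EEF1A2, EEF1D, EIF3E and EIF3H had no window. With vehicle, 9 of 12 were lower (median -0.55), against 8 lower and 1 higher of 33 (median -0.09). Outside the core and EIF3 classes, 3 of 5 genes with a run were lower in each treatment, against 7 of 27 without. Among all tested genes with a window, 25.0% of the 741 with a run were lower with R1881 and 25.9% with vehicle, against 15.4% and 13.5% of the 9369 without. These sets include the 12 and 33 members themselves. They also include 44 and 31 genes whose symbols begin with RPL or RPS and a digit, the pattern of ribosomal protein genes. The 3 members with a run that were not called were EIF2A, EIF3M and EIF4A2 in both treatments. With the replicate number as a block, EIF4A2 was called lower with vehicle, and EIF2A and EIF3M were not.

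**Figure D5:**
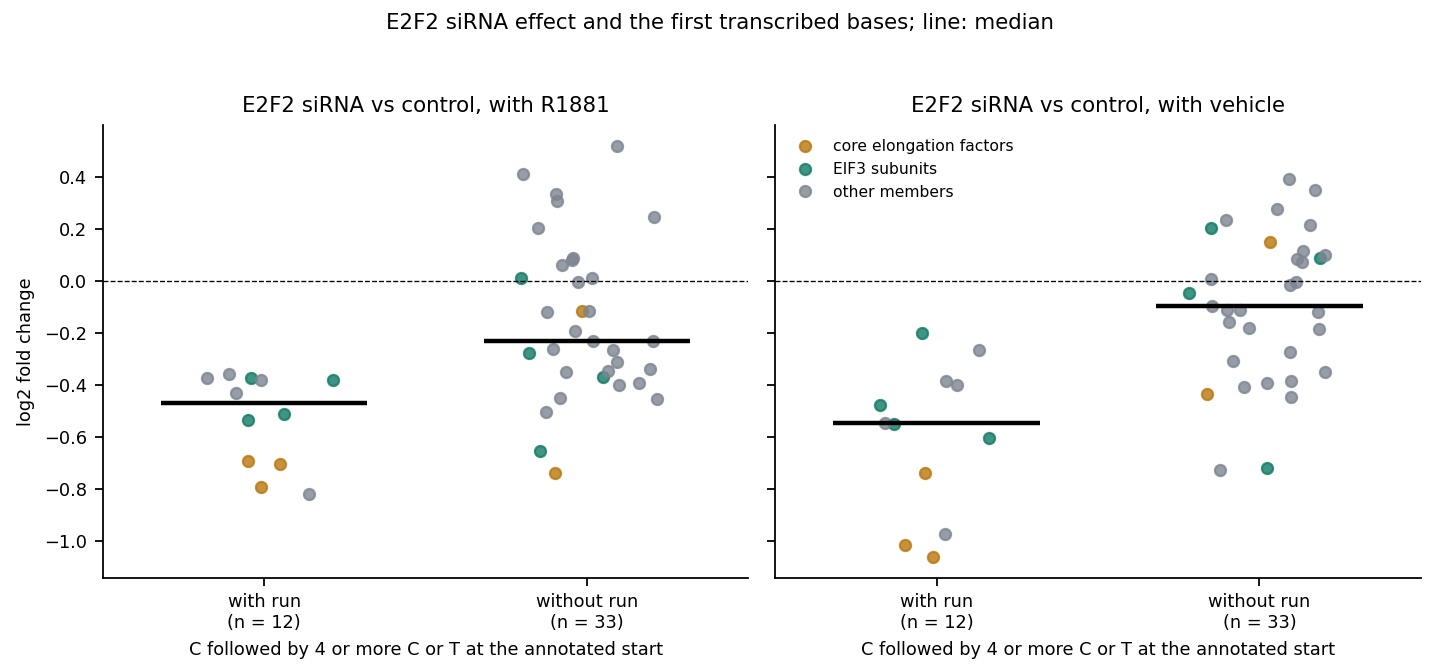
Log2 fold changes for E2F2 siRNA against control siRNA (vertical axis) of members with and without a pyrimidine run at an annotated start, with R1881 on the left and vehicle on the right, points coloured by class and lines at medians. The 12 members with a run have medians of -0.47 and -0.55, against -0.23 and -0.09 for the 33 without. The rule for a run was set after the fold changes were known.

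Set against E2F1 siRNA, E2F2 siRNA also gave more lower than higher calls among the members. With R1881, 18 members were lower and 1, EIF4G3, was higher with E2F2 siRNA than with E2F1 siRNA, against 11.0% lower and 13.1% higher among all tested genes (24.0% in either direction). With vehicle, 24 were lower and 3 higher, against 14.4% and 16.1% (30.6% in either direction). EEF1A1 measured 4244, 3991 and 4001 CPM with E2F2 siRNA and R1881, against 7686, 7487 and 7540 CPM with E2F1 siRNA and R1881, a log2 fold change of -0.89 ± 0.05 (adjusted p = 2.6e-08). The class medians were -0.49 for core elongation factors, -0.38 for EIF3 and -0.14 for the others with R1881, and -0.64, -0.56 and -0.18 with vehicle. The 3 higher genes with vehicle were EEF1AKMT1 (0.73 ± 0.16), EIF4G3 (0.51 ± 0.07) and EIF6 (0.46 ± 0.14, adjusted p = 0.022), and the EIF6 call was lost without any 1 of 4 libraries (adjusted p up to 0.093). With R1881 the calls of EEF1D, EIF2S2, EIF3D and EIF4A3, and with vehicle those of EEF1A2, EIF2S3, EIF3G, EIF3K and EIF4A2, were each lost in the same way (adjusted p up to 0.13 and 0.19). These comparisons share their E2F2 siRNA libraries with those against control siRNA.

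E2F1 siRNA itself changed 1 member. With R1881, EEF2K rose by 0.33 ± 0.10 over control siRNA (adjusted p = 0.046), at 105, 106 and 115 CPM with E2F1 siRNA and R1881 against 83.4, 84.7 and 90.9 CPM with control siRNA and R1881. That is 1.82% of 55 members, against 9.34% of all tested genes (4.42% higher and 4.92% lower). The EEF2K groups did not overlap, but the call was lost when any 1 of the 6 libraries was left out (adjusted p up to 0.17). With vehicle none of 55 members was called by edgeR, against 5.28% of all tested genes (2.36% higher and 2.92% lower). There, 2 members had an unadjusted p under 0.05, DESeq2 called EIF2B5 and limma-voom called none. With the replicate number as a block, EIF2B5 and EIF5B were called higher (12.7% of all tested genes in that fit). From replicates 1 and 2 alone, 12 members (21.4%) were called with R1881 and 4 (7.14%) with vehicle, against 29.5% and 18.8% of all tested genes. Core elongation factors had median log2 fold changes of -0.00 with R1881 and -0.02 with vehicle, and EEF1A1 had log2 fold changes of 0.10 ± 0.05 and -0.02 ± 0.05.

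R1881 itself moved the members in both directions. With control siRNA, 11 of 55 were higher and 5 lower with R1881 than with vehicle, which is 29.1% against 27.0% of all tested genes (13.8% higher and 13.2% lower). With E2F1 siRNA, 4 were higher and 3 lower (12.7% against 19.8%, or 10.1% higher and 9.75% lower), and with E2F2 siRNA, 8 were higher and 3 lower (20% against 22.8%, or 11.8% higher and 11.0% lower). These shares are near or below the background. With the replicate number as a block, 30, 19 and 20 members were called (54.5%, 34.5% and 36.4%), against 42.1%, 30.7% and 36.2% of all tested genes in the same fit. From replicates 1 and 2 alone, 35, 29 and 33 of 56 members were called (62.5%, 51.8% and 58.9%), against 47.3%, 38.3% and 45.5% of all tested genes. These shares were above the background of their fit. The class medians with control siRNA were -0.12 for core elongation factors, 0.09 for EIF3 and 0.16 for the others, beside 0.00 for all tested genes.

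EEF1A1 measured 6967, 6992 and 7244 CPM with R1881 and control siRNA, against 8524, 8582 and 8950 CPM with vehicle and control siRNA. It fell by 0.30 ± 0.05 (adjusted p = 0.00067), by 0.18 ± 0.05 with E2F1 siRNA (adjusted p = 0.025), and had -0.07 ± 0.05 with E2F2 siRNA (adjusted p = 0.38). The call with E2F1 siRNA was lost without any 1 of 5 libraries (adjusted p up to 0.099). EEF1A2 fell by 0.50 ± 0.17 with control siRNA (adjusted p = 0.046), a call lost without R1881 replicate 1 or 2 or vehicle replicate 3 (adjusted p up to 0.23), and by limma-voom. With the block, EEF1A2 was also called with E2F1 siRNA (-0.45 ± 0.08, adjusted p = 0.00048) and E2F2 siRNA (-0.28 ± 0.08, adjusted p = 0.013).

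EEF2 measured 3912, 3877 and 4644 CPM with R1881 and control siRNA, against 4709, 4657 and 7416 CPM with vehicle and control siRNA. The groups did not overlap, and the value of -0.43 ± 0.17 missed the threshold (adjusted p = 0.068), as did -0.29 ± 0.17 with E2F1 siRNA. Blocked by replicate, both passed, at -0.41 ± 0.08 (adjusted p = 0.00086) and -0.27 ± 0.08 (adjusted p = 0.019). Its kinase EEF2K went the other way. EEF2K measured 83.4, 84.7 and 90.9 CPM with R1881 and control siRNA, against 56.7, 53.6 and 71.8 CPM with vehicle and control siRNA. It rose by 0.51 ± 0.10 with control siRNA, 0.87 ± 0.10 with E2F1 siRNA and 0.83 ± 0.10 with E2F2 siRNA (adjusted p = 0.00099, 6.7e-06 and 1.0e-05).

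The genes called with R1881 in all 3 pools were EEF2K, EIF3I and EIF4H, which were higher, and EIF4E3 and EIF4G3, which were lower. EIF3I rose by 0.34 ± 0.10, 0.47 ± 0.10 and 0.40 ± 0.10 with control, E2F1 and E2F2 siRNA. EIF4H rose by 0.28 ± 0.07, 0.27 ± 0.07 and 0.21 ± 0.07. EIF4G3 fell by 0.45 ± 0.07, 0.34 ± 0.07 and 0.32 ± 0.07 in the same order of pools. The EIF3I call with control siRNA and the EIF4H call with E2F2 siRNA were each lost without any 1 of 4 libraries (adjusted p up to 0.093 and 0.11).

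EIF4E3 (chr3:71675416-71754773, minus strand), an atypical cap-binding protein, had the largest falls with R1881 among called members, at -0.98 ± 0.28, -1.26 ± 0.28 and -0.81 ± 0.27 with control, E2F1 and E2F2 siRNA (adjusted p = 0.014, 0.0037 and 0.043). It measured 7.01, 8.78 and 5.80 CPM with R1881 and control siRNA, against 17.4, 16.9 and 8.61 CPM with vehicle and control siRNA. The third vehicle library lay within the R1881 range, so these groups overlapped. The call with control siRNA was lost without vehicle replicate 1 or 2 or R1881 replicate 3 (adjusted p up to 0.061), and the one with E2F2 siRNA without any 1 of 5 libraries (up to 0.15).

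Among initiation factors, EIF5B, the GTPase of subunit joining, rose with R1881 by 0.64 ± 0.18 with control siRNA and 0.58 ± 0.18 with E2F2 siRNA, at 183, 212 and 196 CPM with R1881 and control siRNA against 150.0, 146.9 and 82.5 CPM with vehicle and control siRNA. EIF2S1, the regulated alpha subunit of eIF2, rose by 0.94 ± 0.21 with E2F2 siRNA (adjusted p = 0.0036), at 276, 287 and 226 CPM with R1881 against 145.5, 145.3 and 120.0 CPM with vehicle. It had 0.58 ± 0.21 with control siRNA (adjusted p = 0.051), and 0.61 ± 0.10 when blocked by replicate (adjusted p = 0.00016). With E2F1 siRNA EIF2S1 had 0.31 ± 0.21 (adjusted p = 0.38), and 0.33 ± 0.10 when blocked (adjusted p = 0.022). EIF3B rose by 0.37 ± 0.10 with control and 0.44 ± 0.10 with E2F2 siRNA, and EIF5A by 0.34 ± 0.08 with control siRNA (adjusted p = 0.0047). EIF2B3 and EIF2B1, subunits of eIF2B, were higher with control siRNA (0.48 ± 0.13 and 0.25 ± 0.08). EIF2B4 was higher with E2F1 and E2F2 siRNA (0.40 ± 0.11 and 0.35 ± 0.11). EIF3F, a subunit that also binds other regulators, was lower with control and E2F2 siRNA (-0.28 ± 0.09 and -0.27 ± 0.09). Several of these calls were lost when 1 library was left out: with control siRNA EIF3B (without vehicle replicate 1 or 2 or R1881 replicate 3), EIF3F (without R1881 replicate 1 or 2 or vehicle replicate 3) and EIF2B1 (without any 1 of 4 libraries), with adjusted p up to 0.056, 0.085 and 0.096. With E2F1 siRNA the EIF2B4 call was lost without replicate 2 of either group (up to 0.080), and with E2F2 siRNA those of EIF5B, EIF3F and EIF2B4 without any 1 of 5 libraries (up to 0.083, 0.13 and 0.11). The EIF3J value of 0.70 ± 0.43 with control siRNA was not called (adjusted p = 0.26), but the blocked value of 0.81 ± 0.23 was (adjusted p = 0.011), and from replicates 1 and 2 alone it was 0.49 ± 0.06.

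No member's response to R1881 passed the test for differing between an E2F pool and control, against 0.685% of all tested genes for E2F1 siRNA and 0.889% for E2F2 siRNA (0.560% higher). At an unadjusted p under 0.05 there were 1 and 3 members. DESeq2 called none for E2F1 siRNA and EEF1A1 for E2F2 siRNA, and limma-voom called none for either. EEF1A1 had a difference in response of 0.22 ± 0.08 on the log2 scale, E2F2 siRNA minus control siRNA, with adjusted p = 0.25 by edgeR and 0.033 by DESeq2. EEF2K had 0.36 ± 0.14 for E2F1 siRNA and 0.32 ± 0.14 for E2F2 siRNA (adjusted p = 0.33 and 0.41). From replicates 1 and 2 alone, EEF1A1 and EEF2 were among 6 of 56 members called for E2F2 siRNA (10.7%), with 0.25 ± 0.07 and 0.26 ± 0.07, against 11.6% of all tested genes in that fit, so the members' share was no higher than the background.

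Of 35 related genes that regulate or assist these factors, all tested, R1881 was followed by higher levels of 6 with control siRNA, 6 with E2F1 siRNA and 4 with E2F2 siRNA, and lower levels of none. Those shares of the list, 17.1%, 17.1% and 11.4%, stand beside 13.8%, 10.1% and 11.8% of all tested genes called higher. MTOR, the kinase that signals to the translation machinery, rose by 0.72 ± 0.11, 1.21 ± 0.11 and 0.86 ± 0.11 in those pools. With E2F2 siRNA and R1881, 3 were higher and 4 lower than with control siRNA, which is 8.57% and 11.4%, below the 15.9% and 14.4% of all tested genes. The poly(A)-binding proteins PABPC4 and PABPC1, of which PABPC1 is known to have a TOP mRNA, fell by 0.90 ± 0.08 and 0.62 ± 0.08 with R1881, and by 0.74 ± 0.08 and 0.69 ± 0.08 with vehicle. EIF2AK3 (PERK), a kinase of eIF2 alpha, rose by 1.04 ± 0.15 with R1881 and 1.05 ± 0.15 with vehicle, and EIF4EBP1, an inhibitor of eIF4E, fell by 1.19 ± 0.20 with R1881. With E2F1 siRNA, EIF4EBP2, another such inhibitor, was lower by 0.84 ± 0.13 with R1881 and 0.83 ± 0.13 with vehicle, and 1 of 35 was higher (2.86%) and 3 lower (8.57%) with R1881, beside 4.42% and 4.92% of all tested genes. With E2F1 siRNA and vehicle, EIF4EBP2 was the only call. With E2F2 siRNA and vehicle, 2 were higher and 2 lower, 5.71% each, below the 14.2% and 13.1% of all tested genes.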

How the data were processed

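RNA of 18 LNCaP libraries was prepared by exon capture (TruSeq RNA Exome, per the labels' protocols). Per the submitters' processing notes, the tools were Subread 1.6.4 (featureCounts), TopHat2 2.0.13, CASAVA 1.8.2 and Picard 1.97, on GRCh38. The deposited values are raw counts per gene, made by the authors. Strand setting, handling of multi-mapping reads and annotation release are not given in the sources used here, so overlapping and near-identical genes are uncertain. The 6 groups, taken from the labels, hold 3 libraries each. Genes passing the edgeR filter (minimum count 10, minimum total 15) were kept, 15185 in all, and scaled by TMM. One edgeR 4.0.16 quasi-likelihood model (R 4.3.3) with 6 group means gave 11 comparisons. All tested genes entered the Benjamini-Hochberg adjustment, and an adjusted p under 0.05 was called. SE is the log2 fold change divided by the square root of F. Libraries held 10930204 to 14819879 counts, which limits the precision of genes at a few CPM. CPM here are TMM-scaled.

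Alternatives were RLE scaling, no low-count filter, DESeq2 1.42.0, a filter at 1 CPM in 3 libraries, limma-voom (limma 3.58.1), fits of the compared groups alone, thresholds of 0.01 and 1.5-fold, a block for the replicate number, replicates 1 and 2 alone, and each library left out. The labels do not say what a replicate number shares. Deviations from the group mean of same-numbered libraries correlated above r = 0.1 for every pair in 8 of 11 comparisons (all but E2F2 siRNA against control and against E2F1 siRNA with R1881, and the E2F2 difference in response), so there blocked values stand beside the results described where they change a call. The model was also run on simulated counts, for E2F2 siRNA against control with R1881 only. Those counts held no replicate effect, so the run does not cover the differences of replicate 3. Members, roles and lists were chosen with earlier results of these data known. Named genes were the core factors, eIF5A, EIF4E, EIF4G1, EIF4A1 and EIF6, up to 5 largest rises and falls per comparison and their paralogues, with other members named in the account of their complex. EIF1AY is counted but not described. The pyrimidine-run rule (at least 5 bases) was set after the fold changes were known. Exon lengths and overlaps came from GENCODE 29, which held all 59 members.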

Additional observations from a re-analysis of the deposited data

How the results depend on the processing

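Numbers of members called changed by over 1.5 times as follows. R1881 against vehicle with control siRNA gave 16, against 30 with the replicate number as a block, 35 from replicates 1 and 2 alone, 1 when only the compared groups were fitted, 7 at adjusted p under 0.01 and 2 at 1.5-fold. With E2F1 siRNA it gave 7, against 4 without a filter, 19 blocked, 29 from replicates 1 and 2, 4 from the compared groups and 2 at 1.5-fold. With E2F2 siRNA it gave 11, against 7 without a filter, 20 blocked, 33 from replicates 1 and 2, 4 at 0.01, 3 at 1.5-fold and 6 to 10 with a library left out. E2F2 siRNA against control gave 27 with R1881, against 44 from replicates 1 and 2 and 7 at 1.5-fold, and 24 with vehicle, against 14 from the compared groups and 12 at 1.5-fold. E2F2 against E2F1 siRNA gave 19 with R1881, against 35 from replicates 1 and 2, 31 from the compared groups and 6 at 1.5-fold, and 27 with vehicle, against 13 at 1.5-fold. E2F1 siRNA against control gave 1 with R1881, against 12 from replicates 1 and 2 and 0 with RLE, without a filter, at 0.01, at 1.5-fold and with any library left out. With vehicle it gave 0, against 2 blocked, 4 from replicates 1 and 2, 1 by DESeq2 and 0 to 1 with a library left out. Differences in response gave 0, against 2 for E2F1 siRNA and 6 for E2F2 siRNA from replicates 1 and 2 (3.57% and 10.7% of 56 members, against 12.1% and 11.6% of all tested genes), and, for E2F2 siRNA, 1 blocked (EIF4G2, lower) and 1 by DESeq2 (EEF1A1). The other counts stayed within 1.5 times, and the causes were not tested. Every member called in the 18-library fit was called again blocked and from replicates 1 and 2, where 51.4% of all genes were called for E2F2 siRNA with R1881. For E2F2 siRNA against control with R1881, where the replicate numbers do not pair every library, the block gave 34, and 11 of 18 libraries correlated best with their own number. Over all tested members but EIF1AY and all comparisons, 194 values lost their call, 281 gained one and 1 was called with the opposite sign, among 8964 values of a gene in a comparison under an alternative. That one was EIF3E for R1881 against vehicle with E2F1 siRNA, at 0.02 (adjusted p = 0.98) with all libraries and -0.14 (adjusted p = 0.029) from replicates 1 and 2.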
